A study of Mus musculus with 7 samples.

Results

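The 10 genes described here encode enzymes that oxidize or reduce retinol and retinal. They were Aldh1a1, Aldh1a2, Aldh1a3, Rdh10, Rdh11, Dhrs3, Dhrs9, Adh1, Adh7 and Adh4. They were taken by name, matched by symbol or synonym in GRCm38 (mm10), and are 10 of 21536 protein-coding genes with an annotated start. A peak was assigned to a gene when its midpoint lay in the gene span or within 50 kb of it, and 373 of 245004 peaks met this rule. Liver was taken from male wild type C57BL/6 mice aged 3 months that were fed a normal diet (control) or a retinoic acid (RA) diet. The feeding lasted 1 day according to the labels, whereas the study's methods describe a longer treatment. The study reports its own ChIP-seq for RXRα and RARα only, and describes none for RARβ or for mice on the RA diet. Antibodies against the retinoic acid receptors RARα and RARβ and the retinoid X receptor RXRα were used for chromatin immunoprecipitation and sequencing (ChIP-seq, single-end reads of 35 bp), which gave 6 peak lists, 1 library per receptor and diet. An input library of total chromatin had no peak list and was not analysed here. Both diets share strain, sex, age and tissue, and how many animals stood behind a library is not given in the sources used here. With 1 library per group there was no replicate check, so every difference describes these libraries only and no p-value was computed.

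Retinol, the alcohol form of vitamin A, is oxidized reversibly to retinal by alcohol dehydrogenases and by short-chain dehydrogenases, and other short-chain enzymes reduce retinal back to retinol. Retinaldehyde dehydrogenases then oxidize retinal to RA, a step that is not reversed. RA is the ligand of the RARs, which bind DNA as heterodimers with RXRs, and the liver both stores vitamin A and oxidizes retinoids.

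Under the control diet the whole lists held 35521 peaks for RARα, 14968 for RARβ and 61128 for RXRα, and under RA they held 44296, 29467 and 59624. The read depth behind each list is unknown, and a deeper library can give a longer list. Each peak carries a score that the peak caller derived from its p-value, and scores of different lists are not on 1 scale. The strength of a peak is therefore given as its place, the rank by score as a percent of its list, so that top 1% is a high place. Peaks were found near 4 or 5 of 5 hepatocyte markers in every list, near 3 to 5 of 5 stellate cell markers, near 4 of 4 sinusoidal endothelial markers and near 0 to 2 of 4 Kupffer cell markers. A peak is not a level of RNA, and from 70.2% to 84.8% of all genes had a peak in a list under the same rule, so these counts do not check the tissue or measure its cell types. In whole liver, a change in the number of cells of a type and a change in binding per cell cannot be told apart.

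The genes lie on 8 chromosomes. In GRCm38, the retinaldehyde dehydrogenase genes are Aldh1a1 at chr19:20492583-20643463 on the plus strand, Aldh1a2 at chr9:71215789-71296243 on the plus strand and Aldh1a3 at chr7:66390892-66427477 on the minus strand. The genes of retinol-oxidizing enzymes are Rdh10 at chr1:16105882-16132550, Dhrs9 at chr2:69380462-69403086, Adh7 at chr3:138198064-138232042, Adh1 at chr3:138277585-138290698 and Adh4 at chr3:138415456-138432683, each on the plus strand. The genes of retinal reductases are Dhrs3 at chr4:144892534-144928209 on the plus strand and Rdh11 at chr12:79174233-79191855 on the minus strand. The 3 Adh genes are neighbours, so peaks near them are not independent. The windows of Adh7 and Adh1 had 3 RARα peaks in common under control and 5 under RA, 0 and 5 RARβ peaks, and 11 and 11 RXRα peaks. No peak was shared by the windows of Adh1 and Adh4.

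The bases just upstream of 5 starts are shown, chosen among the starts whose promoter window (250 bases before to 50 after a start) was overlapped by peaks of at least 3 lists. They set windows with and without receptor half-sites side by side, with the outermost start of Dhrs3 standing for its 3 starts, and Aldh1a2 is left out. They are the 250 bases before the start, 5′ to 3′ on the gene's strand, from RefSeq with GRCm38.p6 coordinates. Capitals mark receptor half-sites, the letters AGGTCA or GGGTCA or AGTTCA or GGTTCA, on either strand. The Aldh1a1 and Dhrs3 windows were overlapped by peaks of all 6 lists, those of Adh4 and Adh1 by peaks of every list but RARβ control, and that of Rdh11 by peaks of RARα control, RXRα control and RXRα RA.
Aldh1a1 (chr19:20601718-20601967, plus strand): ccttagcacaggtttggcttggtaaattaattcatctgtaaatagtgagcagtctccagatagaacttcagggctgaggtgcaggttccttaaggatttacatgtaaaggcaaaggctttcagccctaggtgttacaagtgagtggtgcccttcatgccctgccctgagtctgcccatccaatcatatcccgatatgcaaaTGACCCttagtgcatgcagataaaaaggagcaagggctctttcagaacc
Dhrs3 (chr4:144892577-144892826, plus strand): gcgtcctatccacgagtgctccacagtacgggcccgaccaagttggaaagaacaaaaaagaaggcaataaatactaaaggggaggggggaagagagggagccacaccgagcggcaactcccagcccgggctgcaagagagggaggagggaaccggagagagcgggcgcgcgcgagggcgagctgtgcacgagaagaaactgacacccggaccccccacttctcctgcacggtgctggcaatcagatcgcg
Adh4 (chr3:138415247-138415496, plus strand): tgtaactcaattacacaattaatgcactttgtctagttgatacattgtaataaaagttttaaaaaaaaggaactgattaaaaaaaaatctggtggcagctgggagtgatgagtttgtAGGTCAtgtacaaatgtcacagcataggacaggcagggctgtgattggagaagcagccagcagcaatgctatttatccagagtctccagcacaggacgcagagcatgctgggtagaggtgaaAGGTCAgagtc
Adh1 (chr3:138277335-138277584, plus strand): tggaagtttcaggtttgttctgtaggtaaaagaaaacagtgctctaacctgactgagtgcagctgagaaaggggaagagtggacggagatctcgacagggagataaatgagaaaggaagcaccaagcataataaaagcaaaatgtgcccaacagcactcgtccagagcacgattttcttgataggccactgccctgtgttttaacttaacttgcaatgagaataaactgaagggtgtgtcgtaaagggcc
Rdh11 (chr12:79191856-79192105, minus strand): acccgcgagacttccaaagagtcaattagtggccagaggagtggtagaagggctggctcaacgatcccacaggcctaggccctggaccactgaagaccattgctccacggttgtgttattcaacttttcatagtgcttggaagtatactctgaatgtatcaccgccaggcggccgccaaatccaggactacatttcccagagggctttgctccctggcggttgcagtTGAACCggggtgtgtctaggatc

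Counted from the start, the Aldh1a1 window held GGGTCA on the opposite strand at bases -49 to -44, the Adh4 window held AGGTCA at -133 to -128 and again at -11 to -6, and the Rdh11 window held GGTTCA on the opposite strand at -23 to -18. The Adh1 window and the Dhrs3 window, in which 61.6% of the 250 bases were G or C with 19 CpG pairs, held none of these letters although peaks of 5 and 6 lists lay over them. Of all 32851 RefSeq promoter windows, 43.7% held at least 1 half-site and 13.1% held 2 or more, so such matches are common. Half-sites repeated in the same direction with 1, 2 or 5 bases between them (DR1, DR2 and DR5) were in 0.222%, 0.268% and 0.0974% of all windows and in none of the 12 windows of the 8 genes with an entry. The promoter windows of Dhrs9 and Adh7 were overlapped by no peak of any list, and the Aldh1a2 window was overlapped by peaks of RARα RA and both RXRα lists. A match is a description of these letters and not a binding site.

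All 10 genes had a peak in 5 of the 6 lists, and the exception was RARβ under the control diet, where 6 genes had one. Among all genes, 83.7% had a RARα peak under control and 84.8% under RA, 70.2% and 77.8% had a RARβ peak, and 83.7% and 84.3% had an RXRα peak. The 4 genes with no RARβ peak under control but at least 1 under RA were Aldh1a2, Aldh1a3, Adh1 and Adh7, and 9.51% of all genes showed this change. No gene of the 10 changed in this way for RARα or RXRα, against 2.41% and 2.32% of all genes. Aldh1a1, Rdh10, Rdh11, Dhrs3, Dhrs9 and Adh4 had a peak in all 6 lists, as did 67.2% of all genes. Since most genes have a peak under this wide rule, the presence of a peak says little, and the number, position and place of the peaks are given below.

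Closer to the starts the genes differed more. Within 10 kb of a start, a RARα peak was called for 9 genes under control and 8 under RA (62.3% and 63.7% of all genes), a RARβ peak for 4 and 7 (44.5% and 55.2%) and an RXRα peak for 9 and 9 (61.8% and 62.3%). Within 1 kb, the numbers were 6 and 6 for RARα (49.1% and 49.1%), 2 and 4 for RARβ (35.2% and 42.9%) and 7 and 7 for RXRα (42.5% and 44.4%). Aldh1a1, Rdh10, Dhrs3 and Dhrs9 had a peak within 10 kb in all 6 lists (38.8% of all genes), and Aldh1a1 and Dhrs3 within 1 kb (26.5%). RARβ was called within 10 kb only under RA for Adh1, Adh7 and Adh4 (13.1%), and within 1 kb for Adh1 and Adh4 (10.4%). Aldh1a3 had no peak of any list within 1 kb of its start. Adh7 likewise had none within 1 kb of its annotated start, which lies inside its span.

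The number of peaks near the 10 genes differed between diets most for RARβ. RARβ had 14 peaks under control and 56 under RA, 4.0 times as many, whereas its whole list was 1.97 times as long. RARα had 44 and 63, 1.43 times as many, against 1.25 for the whole list. RXRα had 98 under either diet, against 0.975 for the whole list. More RARβ peaks under RA than under control were counted at 10 of 10 genes (56.7% of all genes), more RARα peaks at 7 (47.9%) and more RXRα peaks at 6 (29.5%). The RARβ excess was smaller when equally long lists were compared: with the 14968 highest-scoring peaks of each list, RARβ had 14 and 21 near the 10 genes, with more at 6 genes and fewer at 2. At that length RARα had 17 and 18, with more at 3 genes and fewer at 3. RXRα had 23 and 28, with more at 3 genes and fewer at 0. The RXRα gene count turned with a score limit: at scores of at least 100, RXRα had more peaks under RA at 0 genes and fewer at 7. The shares of all genes at these settings were not counted.

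**Figure D1:**
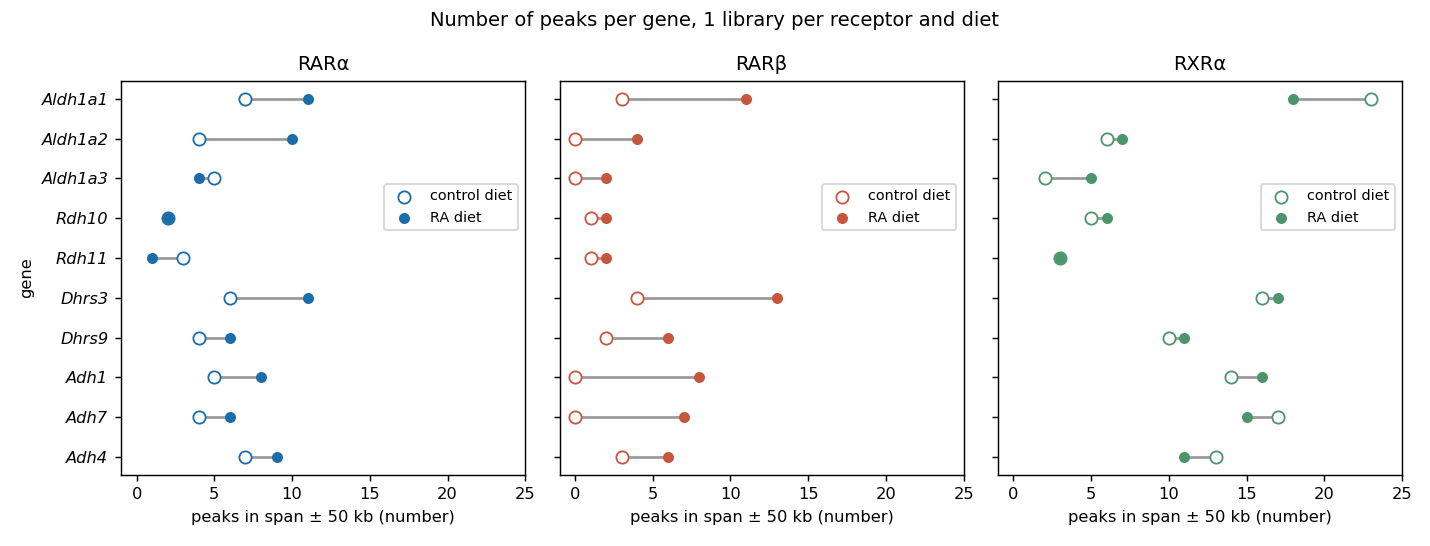
Number of peaks in the span or within 50 kb of each of the 10 genes, with 1 panel per receptor and 1 library per point (open, control diet; filled, RA diet). For RARβ the filled point lies to the right at all 10 genes, with 14 peaks under control and 56 under RA in all, whereas RXRα had 98 under either diet.

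Pooled over the 10 genes, RXRα peaks under either diet and RAR peaks under RA were denser than at the median single gene. The pooled density of the RAR control lists was closer to that median. Against all gene windows pooled, the density near the 10 genes was higher in every list. The windows cover 1.38 Mb and held 71.0 RXRα peaks per Mb under either diet, against 31.6 and 30.8 over all gene windows pooled and 37.7 and 36.9 at the median gene. RARα had 31.9 and 45.6 per Mb (all gene windows, 19 and 23.4) and RARβ had 10.1 and 40.6 (8.15 and 15.6). The median gene had 26.6 and 30.7 RARα peaks and 9.57 and 19.2 RARβ peaks per Mb. The density was uneven among the genes. By RXRα peaks per Mb under control, Adh7 stood at percentile 97.5 of all genes, Adh1 at 97.0, Dhrs3 at 96.1 and Adh4 at 94.6, whereas Rdh10 stood at 52, Aldh1a2 at 45.9, Rdh11 at 38.4 and Aldh1a3 at 27.8. By RARβ peaks per Mb under RA, Dhrs3 stood highest of the 10 at percentile 99.1, followed by Adh1 at 94.6. The lowest were Rdh11 at 44.9, Rdh10 at 42.8 and Aldh1a3 at 41.2. By RARα peaks per Mb under RA, Dhrs3 stood highest at 90.9, and Aldh1a3 at 48.3, Rdh10 at 30.2 and Rdh11 at 20.5 stood lowest.

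Overlapping peaks of the 6 lists were merged into regions, which gave 120 regions near the 10 genes of 87802 in all. RXRα was called in 105 of the 120 (87.5%, Wilson 95% interval 80.4 to 92.3%, against 79.9% of all regions). These intervals cover counting error only. A RAR was called in 83, of which 15 had no RXRα call (18.1%, interval 11.3 to 27.7%, against 31.6% of all regions with a RAR). All 6 lists called 10 regions (8.33%, against 9.75%), and 26 were called in 1 list (21.7%, against 29.4%). Of the 120 regions, 39 lay inside a gene span and 9 within 1 kb of a start of the 10 genes. For 33 of them the nearest start belonged to another gene, and these are marked below where they are named, since a peak does not show which gene it acts on.

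**Figure D2:**
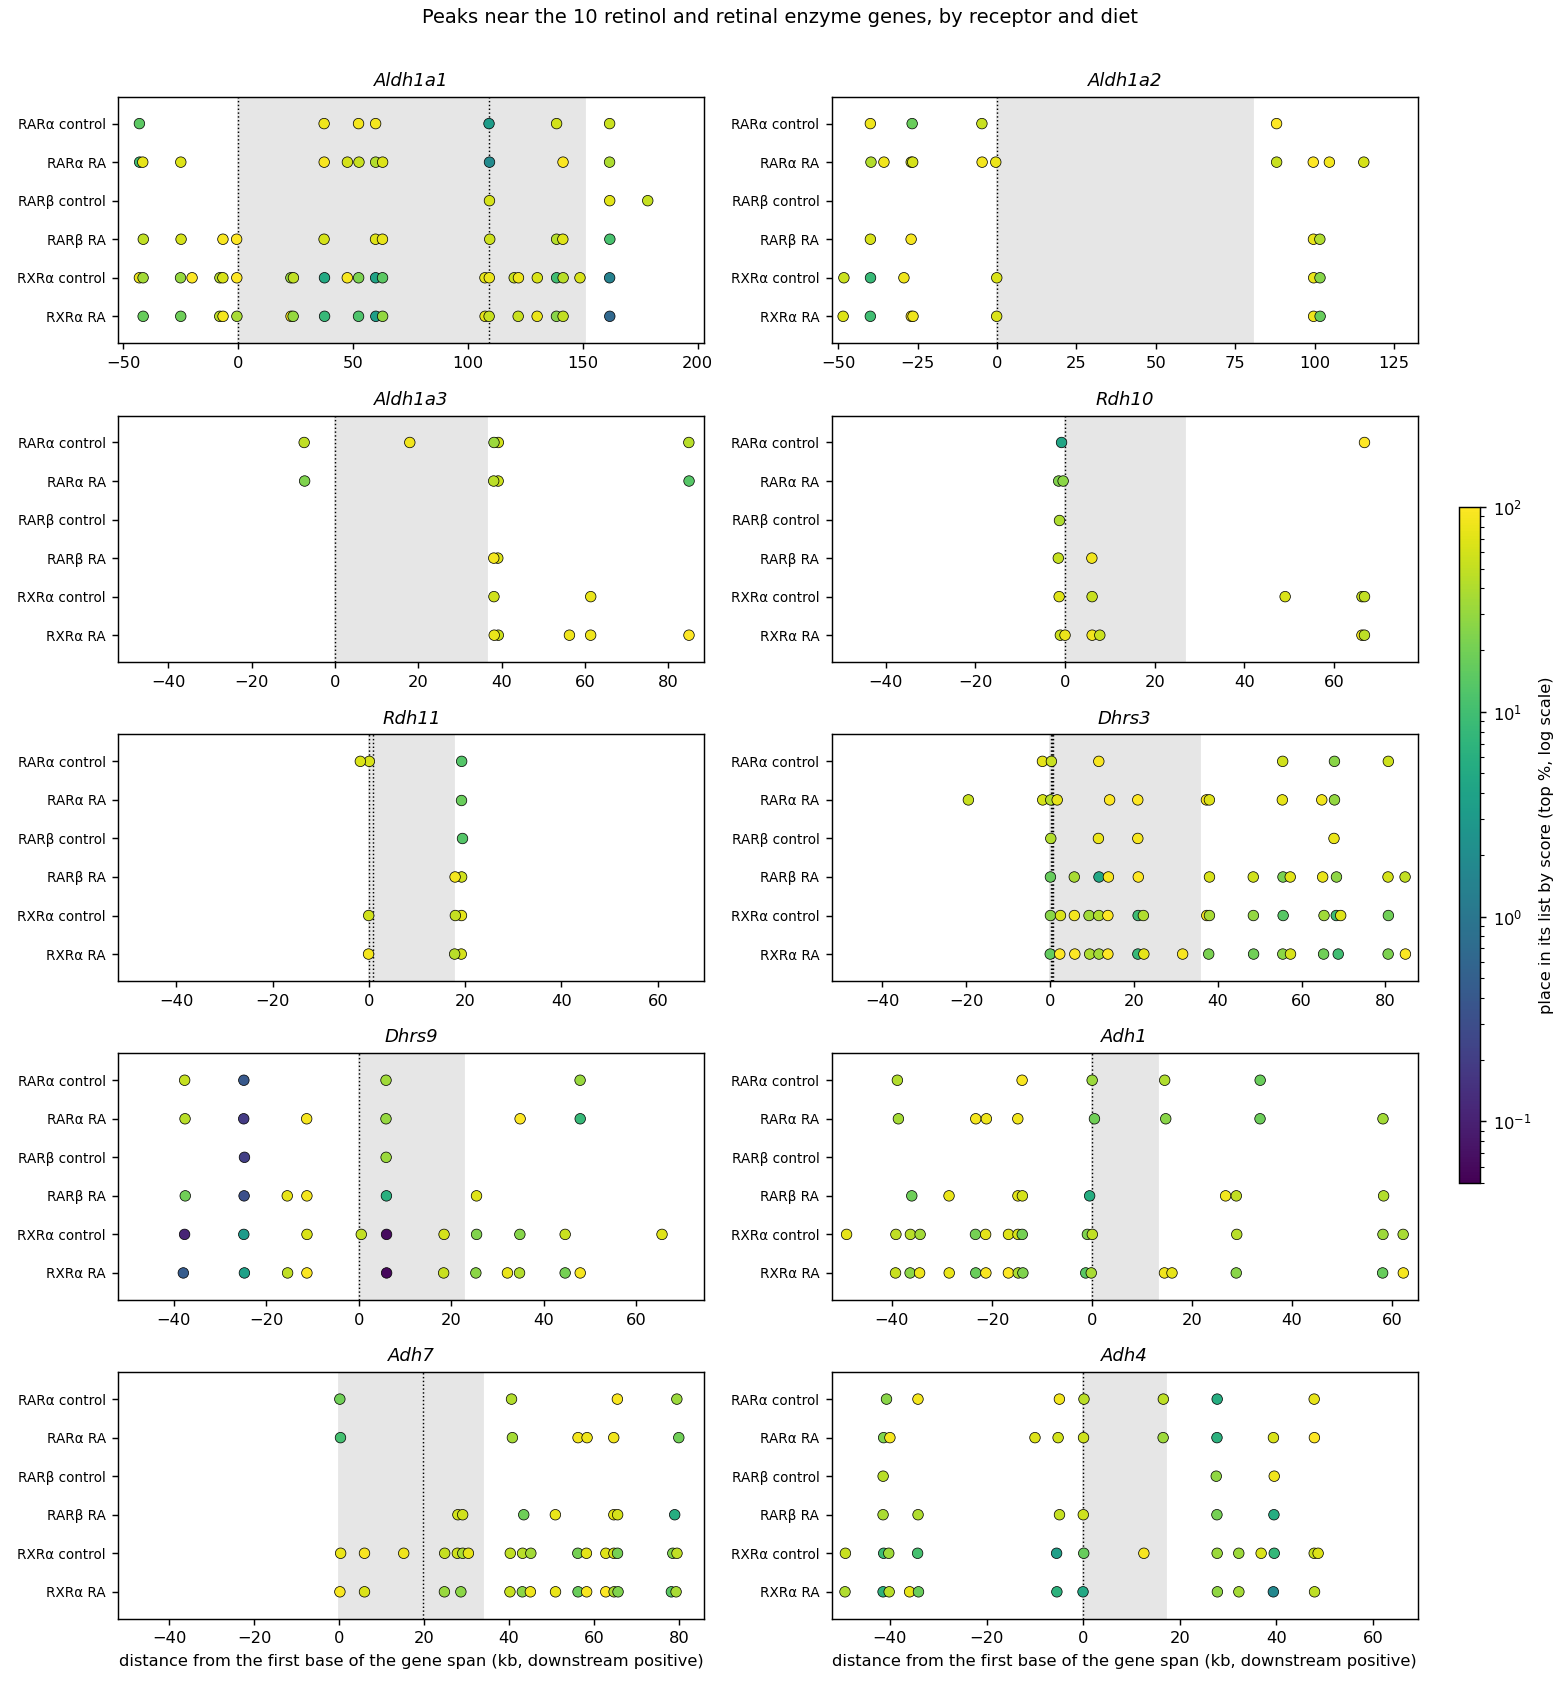
Peaks near each gene, with distance in kb from the first base of the gene span on the horizontal axis (downstream positive) and the 6 lists on the vertical axis. The grey band is the span, dotted lines are annotated starts, and colour is the place of the peak in its list on a log scale (dark, high place). Dark points recur in all 6 lists upstream of Dhrs9, and RARβ points are few under control and many under RA.

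Aldh1a1, the retinaldehyde dehydrogenase with the longest span of the 10 genes, had 7 RARα peaks under control and 11 under RA, 3 and 11 RARβ peaks, and 23 and 18 RXRα peaks. RARα and RARβ counts were thus higher under RA and the RXRα count lower. The region over its inner start (chr19:20601469-20602673, whose upstream bases are shown above) was called in all 6 lists. RARα ranked it in the top 3.25% under control and the top 1.86% under RA. RARβ ranked the same region at 61.0% and 56.6%, and RXRα at 79.2% and 52.3%, so this start was a high place for RARα only. The order was the opposite at a region 52.4 kb downstream of that start, beyond the 3′ end of the span (chr19:20653972-20654802). There RXRα ranked in the top 1.35% under control and the top 0.632% under RA, whereas RARα ranked at 54.1% and 39.3%. RARβ ranked it at 72.1% under control and 11% under RA. The outer start of Aldh1a1 had a region 0.505 kb upstream with RARβ RA at 97.1% and RXRα at 99.9% under control and 36.4% under RA, and no RARα call. Regions 41.3 and 25 kb upstream of the outer start, 46.4 kb upstream of the inner start and 32.1 kb downstream of it were called for both RARs under RA and for neither under control. In that order, RARα ranked these 4 regions under RA at 76.2%, 67.3%, 67.6% and 95.8%. RARβ ranked them at 48.2%, 60.7%, 76.4% and 69.3%, so most of these RAR calls were low places. RXRα was called in all 4 of these regions under both diets, at places between 14.8% and 49.6%.

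Aldh1a2, a retinaldehyde dehydrogenase best known from the embryo, had 4 RARα peaks under control and 10 under RA, 0 and 4 RARβ peaks, and 6 and 7 RXRα peaks. None of its 12 regions lay with its midpoint inside the span. The region at its start (0.219 kb upstream) was called for RARα under RA at 79.4% and for RXRα at 65.6% under control and 64.8% under RA, all low places. Its highest place was a region 39.9 kb upstream (chr9:71175351-71176423), where RXRα ranked at 8.38% and 9.65%, RARα at 83.2% and 42.0%, and RARβ at 63.7% under RA only. The start nearest to that region is that of Aqp9, an aquaglyceroporin of hepatocytes. The region called for both RARs only under RA lay 99.7 kb downstream of the start, with RARα at 97.7% and RARβ at 78.8%. The RARβ peak with the highest place near Aldh1a2 was at 40.7% of the RA list.

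Aldh1a3, the other retinaldehyde dehydrogenase, had the fewest RXRα peaks of the 10 genes under control. It had 5 RARα peaks under control and 4 under RA, 0 and 2 RARβ peaks, and 2 and 5 RXRα peaks. The region nearest its start lay 7.38 kb upstream and was called for RARα alone, at 48.8% under control and 23.1% under RA. Its highest place was RARα under RA at 13.4%, in a region 84.9 kb downstream of the start (chr7:66342282-66342842) whose nearest start is that of Lrrk1. That region was at 44.5% for RARα under control and 99.3% for RXRα under RA. No RARβ or RXRα peak near Aldh1a3 ranked above 56.6% of its list.

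Rdh10, which encodes the main retinol-oxidizing short-chain dehydrogenase of the embryo, had few peaks. RARα had 2 under either diet, RARβ 1 under control and 2 under RA, and RXRα 5 and 6. A region of merged peaks that reaches its start (chr1:16103951-16106236) was called in all 6 lists. RARα ranked it at 4.34% under control and 23.7% under RA, and RARβ at 39.5% and 50.9%. RXRα ranked it at 69.3% and 55.6%. The RAR places were thus lower under RA at this region while the RXRα place was higher, but separate peaks are compared here. The RARα control peak was 2264 bp wide and covered the Rdh10 start. RARα under RA had 2 peaks there, and that over the Rdh10 start ranked at 26.6%. The midpoint of the merged region lay 0.789 kb upstream of the Rdh10 start and 0.66 kb upstream of the Rpl7 start. Rpl7 is a ribosomal protein gene, and the region cannot be assigned to 1 of the 2 genes.

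Dhrs9, a short-chain dehydrogenase with activity on retinol and on steroids, had the highest places of the 10 genes in every list. It had 4 RARα peaks under control and 6 under RA, 2 and 6 RARβ peaks, and 10 and 11 RXRα peaks. The region 24.8 kb upstream of its start (chr2:69355273-69355980) ranked in the top 0.403% and 0.19% for RARα, the top 0.207% and 0.309% for RARβ, and the top 3.12% and 3.8% for RXRα, control first. Its RARβ score was 1143.6 under control and 929.01 under RA. This was the strongest RAR region near any of the 10 genes under either diet. The nearest start is that of Abcb11, which encodes the bile salt export pump of hepatocytes, 13 kb away. The region 5.92 kb downstream of the Dhrs9 start, inside the span (chr2:69385766-69386999), was also in all 6 lists, with RXRα at 0.0622% and 0.0587%. RARα ranked it at 33.9% and 30.0%, and RARβ at 32.0% under control and 6.18% under RA. The same window reached the start of Abcb11 itself, where a region 37.9 kb upstream of Dhrs9 ranked at 0.11% and 0.439% for RXRα, 51.1% and 44.3% for RARα and 19.3% for RARβ under RA only. The peak nearest the Dhrs9 start, 0.502 kb downstream, was in the RXRα control list alone, at 50.3%. The region called for both RARs only under RA lay 11.3 kb upstream, at 91.0% for RARα and 88.8% for RARβ.

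**Figure D3:**
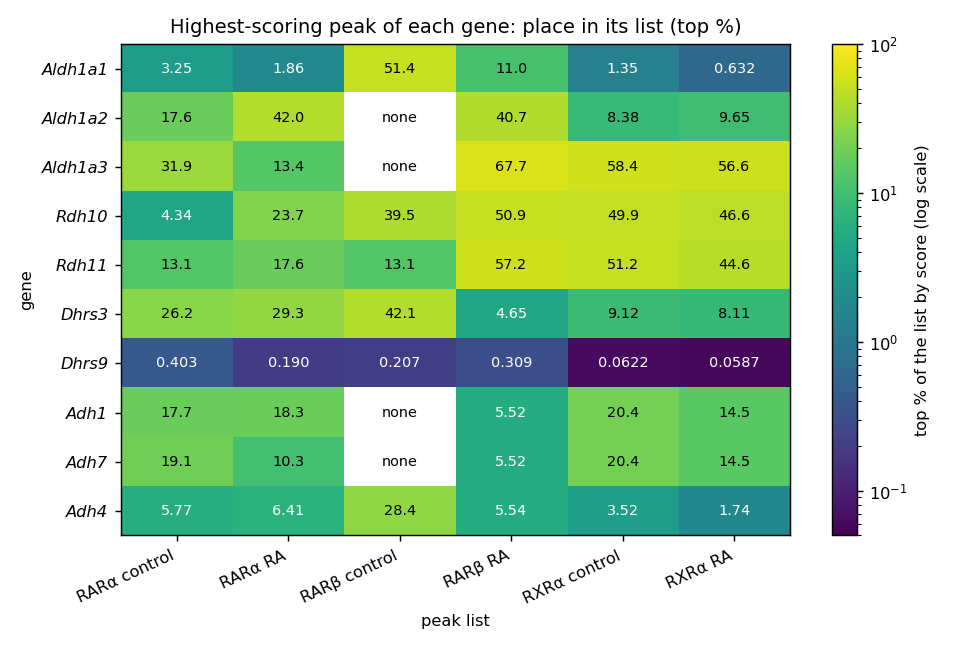
Place of the highest-scoring peak of each gene in each list, as top percent of the list, with colour on a log scale (dark, high place; white, no peak in the window). Dhrs9 ranks in the top 0.403% or higher in all 6 lists, and 4 genes have no RARβ peak under control.

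The Adh genes encode medium-chain alcohol dehydrogenases that oxidize ethanol and retinol to different degrees. Adh1, the abundant liver enzyme, had 5 RARα peaks under control and 8 under RA, 0 and 8 RARβ peaks, and 14 and 16 RXRα peaks. The region over its start (chr3:138276035-138279352) was called in every list but RARβ control. RARβ ranked it at 5.52% under RA, RARα at 31.7% and 19%, and RXRα at 23.3% and 14.5%. These 2 RXRα peaks ended upstream of the start, and the RXRα peaks over the start itself ranked at 47.8% under control and 37.5% under RA. The RARβ place at this start was thus among the highest of the RARβ RA peaks near the 10 genes, without a call under control. Another region 58.2 kb downstream of the Adh1 start was called for both RARs only under RA, with RARα at 35.0% and RARβ at 41.4%. Its nearest start is that of Adh6b, a related alcohol dehydrogenase gene, 5.65 kb away. The highest RARα places near Adh1 were 17.7% and 18.3%, at a region 33.6 kb downstream that lay nearest to Adh6a.

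Adh7, which encodes the class IV enzyme of epithelia, had 4 RARα peaks under control and 6 under RA, 0 and 7 RARβ peaks, and 17 and 15 RXRα peaks. Of its 15 regions, 10 also lay in the Adh1 window, and its best RARβ and RXRα peaks were those of Adh1. The peak nearest its start, 4.5 kb upstream, was in the RXRα control list alone, at 84.6%. The highest RARα places, 19.1% under control and 10.3% under RA, were at a region 19.5 kb upstream of the start that lies in no other of the 10 windows. The start used for Adh7, chr3:138217773, lies inside its span, and that region lay over the first base of the span, chr3:138198064. The start nearest to that region is that of 4930579F01Rik, 4.45 kb away.

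Adh4, another liver alcohol dehydrogenase, had 7 RARα peaks under control and 9 under RA, 3 and 6 RARβ peaks, and 13 and 11 RXRα peaks. The region at its start (chr3:138415012-138416167), which holds the AGGTCA letters shown above, was called in every list but RARβ control. RXRα ranked it at 17.1% under control and 4.7% under RA, RARα at 45.2% and 55.8%, and RARβ at 56.1% under RA. At the Adh4 start RXRα thus had the highest place, whereas at the Adh1 start RARβ under RA did. A region 27.7 kb downstream was called in all 6 lists and lay at the start of Adh5, a broadly expressed alcohol dehydrogenase gene. There RARα ranked at 5.77% and 6.41%, RARβ at 28.4% and 20.6%, and RXRα at 31.5% and 28.3%. A region 40.9 kb upstream was also in all 6 lists, with RXRα at 9.07% and 6.63%, and its nearest start is that of Adh6b at 33.2 kb. The highest RXRα place under RA, 1.74%, lay 39.4 kb downstream (chr3:138454418-138455344), inside the span of Adh5 and 11.8 kb from its start. RARβ ranked that region at 84.9% under control and 5.54% under RA, and RARα at 62.9% under RA only.

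Dhrs3, a retinal reductase and a widely used RA-responsive gene, had 6 RARα peaks under control and 11 under RA, 4 and 13 RARβ peaks, and 16 and 17 RXRα peaks. Its 13 RARβ peaks under RA were the most of the 10 genes. The region over its starts (chr4:144891744-144895805) was called in all 6 lists. RARβ ranked it at 42.1% under control and 16.9% under RA, RARα at 52.6% and 41.3%, and RXRα at 26.1% and 16.3%. A longer list moves the percent of a given peak, and regions called under both diets had a higher place under RA in 62.4% of all cases for RARα and 64.5% for RARβ, so these shifts are not read as a change at Dhrs3. Inside the span, 11.1 kb downstream of the starts (chr4:144903496-144904945), RARβ ranked at 80.1% under control and 4.65% under RA. RXRα ranked that region at 39.9% and 35.3%, and RARα at 93.0% under control with no call under RA. A region 67.9 kb downstream was in all 6 lists, with RXRα at 9.14% and 9.8%, RARα at 26.2% and 29.3%, and RARβ at 78.8% and 27.8%. Regions 13.2, 37.2 and 64.7 kb downstream were called for both RARs only under RA, at RARα places of 98.0%, 69.1% and 86.0%. RARβ ranked these regions at 91.6%, 62.6% and 77.1%, in the same order. For 18 of 18 regions near Dhrs3 the nearest start was that of Dhrs3 itself.

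Rdh11, a short-chain enzyme that reduces retinal, had the fewest regions of the 10 genes, 4. RARα had 3 peaks under control and 1 under RA, RARβ 1 and 2, and RXRα 3 and 3. The region at its outer start was called for RARα under control at 62.4% and for RXRα at 58.0% and 87.9%, with no RARβ call and no RARα call under RA. The region in all 6 lists lay 18.4 kb downstream, past the 3′ end of Rdh11 and at the start of Vti1b, a gene of vesicle transport (chr12:79172046-79173124). RARα ranked it at 13.1% and 17.6%, RARβ at 13.1% and 57.2%, and RXRα at 74.2% and 61.5%. Rdh11 was thus the 1 gene of the 10 at which RARα was called at the start under control but had no peak within 10 kb of a start under RA.

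High places were spread unevenly over the enzymes. A RARα peak in the top 10% of its list was found near Aldh1a1, Rdh10, Dhrs9 and Adh4 under control (36.2% of all genes) and near Aldh1a1, Dhrs9 and Adh4 under RA (40.2%). For RARβ, Dhrs9 alone had one under control (18.4%), and Dhrs3, Dhrs9, Adh1, Adh7 and Adh4 had one under RA (29.1%). The RARβ peak counted for Adh7 is that at the Adh1 start, so these 2 genes are counted for the same peak. For RXRα, Aldh1a1, Aldh1a2, Dhrs3, Dhrs9 and Adh4 had one under control (34.3%) and again under RA (33.0%). With 10 genes, counts of 1 to 5 do not stand apart from these background shares.

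Most peaks under the control diet were found again under RA, with a peak counted as shared when the overlap was at least 25% of the width of each. Near the 10 genes, 35 of 44 RARα control peaks were shared with the RA list (79.5%, interval 65.5 to 88.8%, whole list 84.2%), as were 12 of 14 RARβ control peaks (85.7%, 60.1 to 96.0%, whole list 75.8%) and 84 of 98 RXRα control peaks (85.7%, 77.4 to 91.3%, whole list 78.7%). In the other direction, 37 of 63 RARα RA peaks (58.7%, 46.4 to 70.0%, whole list 68.4%) and 81 of 98 RXRα RA peaks (82.7%, 74.0 to 88.9%, whole list 80.3%) were shared with control. The lowest share was that of RARβ RA peaks with the control list, 12 of 56 (21.4%, 12.7 to 33.8%, whole list 38.2%). It was 8 of 21 (38.1%) at equal list length and 2 of 21 (9.52%) at scores of at least 100. In terms of regions, RARβ was called under RA in 54 of 120. Of these, 41 had no RARβ call under control (75.9%, 63.1 to 85.4%, against 60.2% of all regions with RARβ under RA). Of those 41, RXRα was already called under control in 34 (82.9%) and RARα in 15 (36.6%). Among all regions with RARβ under RA and not under control, these shares were 86.7% and 46.4%. Both RARs were called only under RA in 10 regions (8.33%, 4.59 to 14.7%, against 4.13% of all regions). Most of these 10 lay near Aldh1a1 and Dhrs3. Their places under RA ran from 35.0% to 98.0% for RARα and from 41.4% to 91.6% for RARβ. This count was not repeated with a score limit or at equal list length.

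The overlap of RAR peaks with RXRα peaks depended on the length of the lists. In the full lists under RA, 55 of 56 RARβ peaks near the 10 genes were shared with RXRα (98.2%, interval 90.6 to 99.7%, whole list 89.9%) and 48 of 63 RARα peaks were (76.2%, 64.4 to 85.0%, whole list 61.7%). Under control, 12 of 14 RARβ peaks (85.7%, whole list 77.8%) and 30 of 44 RARα peaks (68.2%, whole list 61.1%) were shared with RXRα. Between the RARs, 34 of 56 RARβ RA peaks were shared with RARα RA (60.7%, whole list 72.1%) and 34 of 63 in the other direction (54.0%, whole list 48.8%). Under control, 11 of 14 RARβ peaks were shared with RARα (78.6%, whole list 74.2%) and 11 of 44 in the other direction (25%, whole list 31.0%). Of the RXRα peaks, 54 of 98 were shared with RARβ under RA (55.1%) and 12 of 98 under control (12.2%), against 44.8% and 19% of the whole RXRα lists. A longer partner list raises such shares. At equal list length, RXRα held 22.2% of the RARα and 57.1% of the RARβ peaks under RA, and 29.4% and 42.9% under control. At that length RARβ held 33.3% of the RARα peaks under RA and 47.1% under control, more than RXRα did, so no order of partners is read from the full lists.

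**Figure D4:**
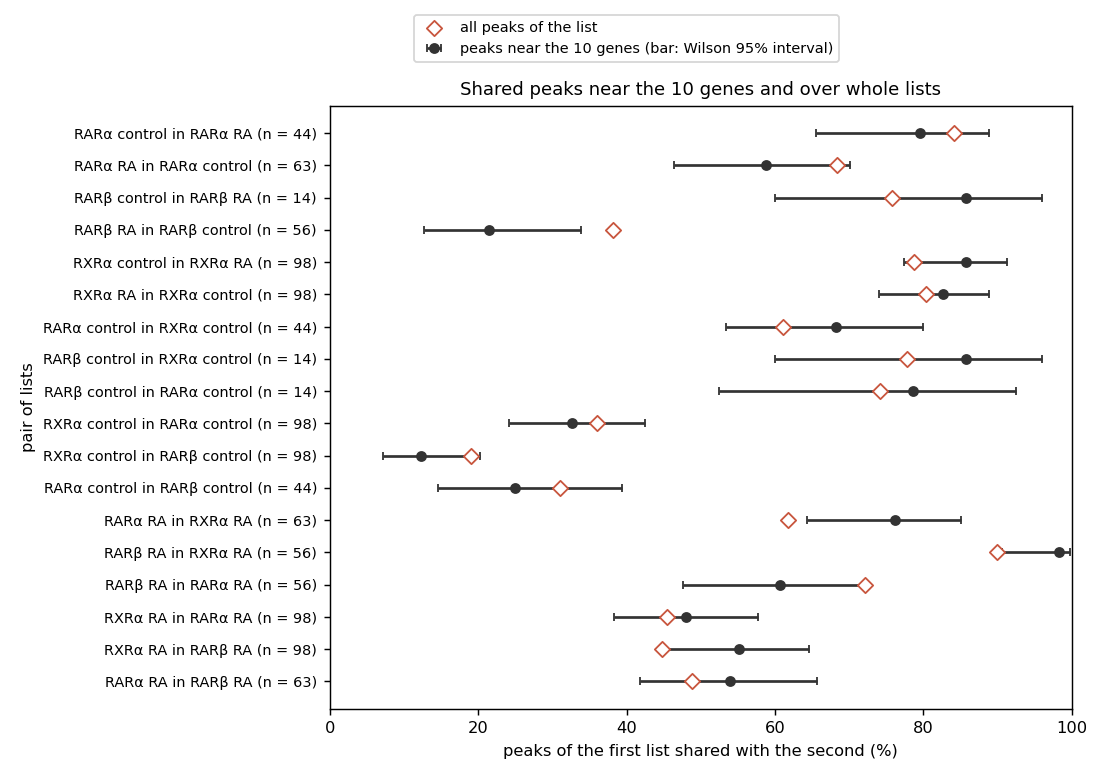
Percent of the peaks of 1 list shared with a second list, for peaks near the 10 genes (filled circles, bars are Wilson 95% intervals for counting error, n is the number of peaks) and for all peaks of the list (open diamonds). The share of RARβ RA peaks found under control is 21.4% near the 10 genes and 38.2% for the whole list (38.1% near the 10 genes at equal list length), and the share of RARβ RA peaks with RXRα is 98.2% and 89.9% (57.1% near the 10 genes at equal list length).

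Within regions called under both diets, the place under RA was higher than under control in 24 of 36 regions for RARα (66.7%, all regions 62.4%), 9 of 13 for RARβ (69.2%, all regions 64.5%) and 38 of 77 for RXRα (49.4%, all regions 50.3%). The regions near the 10 genes were thus near the shares of all regions. Peaks within 1 kb of any gene's start made up 25% of the RARα control peaks near the 10 genes and 17.5% under RA, 35.7% and 17.9% for RARβ, and 14.3% and 14.3% for RXRα. The corresponding shares of the whole lists were 28.4% and 23.6%, 46.9% and 29.4%, and 15.4% and 16.3%. At the limit of 50 kb, the numbers of peaks in the last 10 kb inside and the next 10 kb outside were 6 and 8 for RARα control, 7 and 6 for RARα RA, 1 and 4 for RARβ control, 6 and 9 for RARβ RA, 14 and 19 for RXRα control and 13 and 16 for RXRα RA, so peaks do not end at the limit.

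Other enzymes of retinol and retinal conversion, 22 genes such as Adh5, Rdh5, Dhrs4 and Aldh8a1, had a peak within 10 kb of a start in 16 cases for RARα under either diet. For RARβ the number was 9 under control and 14 under RA, and for RXRα 16 and 18. Adh5, Adh6a and Adh6b lie between or beside Adh1 and Adh4, so some of their peaks were also counted near the 10 genes. Rdh1, Rdh7, Rdh9, Rdh16 and Rdh19 lie together on chromosome 10, so the 22 genes are not independent. These counts are read against the shares of all genes given above, 62.3% and 63.7% for RARα, 44.5% and 55.2% for RARβ, and 61.8% and 62.3% for RXRα, and the RARβ share of all genes was also higher under RA.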

How the data were processed

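Per the labels, chromatin from mouse liver was immunoprecipitated with antibodies to RARα, RARβ or RXRα, giving 1 library per receptor and diet and 1 input, and samples were grouped from those labels. The authors' processing notes name CASAVA 1.4 and Bowtie. The study's methods give Bowtie 0.12.7, alignment to mm10 and MACS 1.4.1 for the ChIP-seq it reports, which does not include RARβ. The deposited score is the peak caller's value for each peak, starting at 50 in the lists, not scaled between libraries, and was used only for ranks within a list. Read depths are unknown. The 10 genes and all lists were chosen with earlier results of these data known.

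Peaks were assigned by midpoint with pandas 2.3.3 and numpy 2.4.6, and ties in score took their mean rank. Spans came from RefSeq (GRCm38.p6). Starts came from the RefSeq promoter table for 8 of the 10 genes and, for Rdh10 and Aldh1a3, from the span with the strand of GENCODE M1. Among all 21900 protein-coding genes the sources were the promoter table for 17492 and the span for 4044, and 364 were left out. Offsets run from the nearest start of a gene. Peaks overlapping by at least 1 bp across lists were merged into regions. Sequence outside promoter windows and exon annotation were not used here, because the genome at hand was of another build. Named regions were, for each gene, that with the best place, that nearest the start, all in 6 lists and all called for both RARs under RA only. Other values were chosen after they were seen. Wilson intervals used scipy 1.17.1. The counting and overlap code was tested on simulated data. Alternatives were peaks within 10 kb of a start, spans plus 10 kb, scores of at least 100, equal list length, other overlap rules and another treatment of ties. A further gene list that had been chosen is not reported here.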

Additional observations from a re-analysis of the deposited data

Results flagged for a closer look

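At 5 of the 10 genes, some receptors had more peaks under RA and another had fewer. The share of all genes with such mixed directions was not counted, so the 5 are not read as particular to these enzymes. These differences were not tested, since each rests on 1 library per receptor and diet. At Aldh1a1 the number under RA minus that under control was 4 (RARα), 8 (RARβ) and -5 (RXRα). At Adh7 it was 2, 7 and -2, and at Adh4 it was 2, 3 and -2, in the same order. At Aldh1a3, RARα differed by -1, RARβ by 2 and RXRα by 3. At Rdh11, RARα differed by -2 and RARβ by 1. The RA lists of RARα, RARβ and RXRα were 1.25, 1.97 and 0.975 times as long as their control lists, and the part of list length and depth in these differences was not tested.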

How the results depend on the processing

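No paired analysis was possible because each receptor and diet has 1 library, and for the same reason no library could be left out. No test was run, so the values below are counts and shares. Counting any overlap of 1 bp kept 18 of 18 shares within their counting interval, and placing tied scores at their worst rank kept 6 of 6 counts of genes with a peak in the top 10%. Numbers of peaks depend on the window, the score limit and the list length. In the order RARα control, RARα RA, RARβ control, RARβ RA, RXRα control and RXRα RA, peaks within 10 kb of a start numbered 12, 13, 4, 13, 23 and 22, and peaks in the spans plus 10 kb numbered 26, 32, 7, 28, 53 and 51. A score limit of 100 left 25, 33, 3, 21, 72 and 64 in that order. RARβ control peaks of that score lay near 3 genes. Lists of equal length left 17, 18, 14, 21, 23 and 28. Within 10 kb of a start, a peak in the top 10% of its list was left for 2, 1, 0, 2, 2 and 2 genes in the order above.

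Shares with the other diet also moved. With scores of at least 100 in both lists, 96.0% of RARα control peaks were shared with RA and 75.8% of RARα RA peaks with control, as were 9.52% of RARβ RA peaks with control and 75.0% of RXRα control peaks with RA. Between lists of equal length, control held 83.3% of RARα RA peaks, 38.1% of RARβ RA peaks and 67.9% of RXRα RA peaks, and RA held 57.1% of RARβ control peaks. Within 10 kb of a start they were 84.6% for RARα RA in control, 100% (4 of 4) for RARβ control in RA, 91.3% for RXRα control in RA and 90.9% for RXRα RA in control.

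Shares between receptors under control were as follows. At scores of at least 100, 48.0% of RARα peaks were in RXRα, 100% (3 of 3) of RARβ in RARα, 19.4% of RXRα in RARα, 2.78% of RXRα in RARβ and 12% of RARα in RARβ. At equal list length, 29.4% of RARα peaks were in RXRα, 42.9% of RARβ in RXRα, 21.7% of RXRα in RARα, 26.1% of RXRα in RARβ and 47.1% of RARα in RARβ. With an overlap of at least 50%, 42.9% of RARβ peaks were in RARα and 13.6% of RARα in RARβ. Within 10 kb of a start, 100% (4 of 4) of RARβ peaks were in RXRα and 100% in RARα. Under RA at scores of at least 100, 63.6% of RARα peaks were in RXRα, 90.5% of RARβ in RXRα, 47.6% of RARβ in RARα, 31.2% of RXRα in RARα, 29.7% of RXRα in RARβ and 30.3% of RARα in RARβ. At equal list length, these were 22.2%, 57.1%, 28.6%, 14.3%, 42.9% and 33.3%. With an overlap of at least 50%, 54.0% of RARα peaks were in RXRα and 34.7% of RXRα in RARα. Within 10 kb of a start, 100% (13 of 13) of RARβ peaks were in RXRα. Smaller windows, higher limits and shorter lists leave fewer peaks by construction. Unknown read depth limits every comparison between lists.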
